A study of Rattus norvegicus with 10 samples.

Results

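Immediate early genes were examined in the hippocampus of rats 3 months after traumatic brain injury (TBI). The genes were Fos, Fosb, Junb, Egr1, Egr2, Egr3, Egr4, Arc, Npas4 and Nr4a1. They were found by matching the RefSeq accession of each row of the count table to these symbols, keeping the row with the highest mean count where a symbol had several. Each symbol had a single row, so the 10 genes are 10 of the 32041 RNA records in the table. All 10 passed the filter on low counts, a total of at least 44 reads over the 10 rats.

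The animals were adult male Sprague-Dawley rats, which weighed 330 to 371 g at injury. Their age is not given in the sources used here. The 5 TBI rats received lateral fluid percussion, in which a pressure pulse strikes the exposed dura, here over the left hemisphere at a mean of 3.32 atm. The 5 sham rats had the same anaesthesia (pentobarbital, chloral hydrate, magnesium sulphate, propylene glycol and ethanol) and the same craniectomy without the pulse. All rats were anaesthetized with isoflurane and decapitated, and poly-A RNA of each rat was sequenced from a piece of the left hippocampus, dorsal per the labels, that held CA3 and the dentate gyrus. The injured rats had no EEG recording and showed no seizures on handling, so the group is an injury group and not a group of rats with proven epilepsy. The time of day and the interval from handling to decapitation are not given in the sources used here. The part of either in the levels below was not tested.

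Immediate early genes are transcribed within minutes of synaptic activity, calcium entry or growth factor signals, without new protein being made first. In the hippocampus they are widely used as marks of recently active neurons, and seizures, learning and handling all induce them. Most of the group encode transcription factors. Fos, Fosb and Junb proteins pair to form AP-1. Egr1 to Egr4 are zinc finger factors, Npas4 is a neuronal factor driven mainly by calcium entry, and Nr4a1 is an orphan nuclear receptor. Arc is the exception, a cytoskeletal protein of dendrites that promotes removal of AMPA receptors from synapses. Their messengers are short lived, so a level reports on recent events as well as on the lasting state of the tissue. Because the tissue was homogenized, fewer expressing cells and less messenger per cell cannot be told apart.

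Classical inducers act through CREB and serum response factor (SRF). CREB binds the cyclic AMP response element (CRE), TGACGTCA, and its core, TGACG or CGTCA on the other strand, and SRF binds the CArG box. Promoters from 250 bases before to 50 after the gene start were taken from RefSeq (assembly GRCr8) for 7 of the 10 genes. These promoters were searched on both strands, and a full CRE also counts as a core. No promoter sequence was available here for Fos, Arc and Egr3, so those genes were not searched. A core was found in 5 of the 7 (Egr1, Egr2, Egr4, Junb and Nr4a1) and in 21.2% of all 33469 promoters of this length. A CArG box was found in 2 of the 7 (Egr1 and Egr2) and in 1.64% of all promoters. The promoters of Fosb and Npas4 held neither. A full CRE was found in 0 of the 7 and in 1.83% of all promoters. These matches describe the letters only. The following 3 promoters are shown because Nr4a1 had the smallest p of the 10 genes and Egr4 the next smallest, and because Egr2 holds both motifs. Egr1, not shown, also holds both, with 2 cores and 2 CArG boxes. Capitals mark the CRE cores and, in Egr2, also the CArG box. Nr4a1 lies at chr7:134259888-134260187 on the plus strand, Egr4 at chr4:119607768-119608067 on the minus strand and Egr2 at chr20:21054392-21054691 on the minus strand.
Nr4a1: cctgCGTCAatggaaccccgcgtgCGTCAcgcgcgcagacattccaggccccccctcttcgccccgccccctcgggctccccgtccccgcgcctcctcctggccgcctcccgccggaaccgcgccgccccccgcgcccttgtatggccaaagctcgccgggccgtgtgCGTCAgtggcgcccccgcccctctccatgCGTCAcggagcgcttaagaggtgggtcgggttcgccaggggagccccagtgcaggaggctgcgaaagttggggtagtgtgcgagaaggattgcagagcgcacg
Egr4: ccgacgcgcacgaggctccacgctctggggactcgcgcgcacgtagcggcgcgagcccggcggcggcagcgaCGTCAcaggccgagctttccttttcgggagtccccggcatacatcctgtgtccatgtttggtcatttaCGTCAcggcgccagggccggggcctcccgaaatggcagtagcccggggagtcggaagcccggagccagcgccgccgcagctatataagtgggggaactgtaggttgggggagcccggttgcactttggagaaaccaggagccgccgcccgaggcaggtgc
Egr2: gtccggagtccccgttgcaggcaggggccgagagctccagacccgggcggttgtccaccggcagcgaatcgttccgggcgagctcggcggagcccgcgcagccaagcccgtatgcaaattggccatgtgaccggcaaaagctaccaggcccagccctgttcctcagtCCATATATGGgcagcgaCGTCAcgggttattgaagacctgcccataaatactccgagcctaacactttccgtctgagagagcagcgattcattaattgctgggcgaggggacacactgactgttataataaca
Nr4a1 held 4 cores and no CArG box. Egr4 held 2 cores. Egr2 held 1 core and 1 CArG box, with the CArG box before the core.

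The libraries held 23425817 to 31671838 counts. Ribosomal RNA took 58.5% and 59.0% of counts in sham rats 5 and 4, and 12.5% to 26.2% in the other 8 rats. TBI rat 5 had the lowest share. Counts outside ribosomal RNA ran from 12686398 to 22089112 in sham rats. In TBI rats they ran from 21336394 to 24735107, with the most in TBI rat 5. General neuronal markers were well represented, each with a mean of at least 170 CPM, a count divided by the scaled size of its library. Markers of CA1, which the dissection was meant to leave out, were also present. Wfs1, a CA1 marker, ranged from 18.1 to 52.6 CPM in sham rats and from 23.0 to 237 CPM in TBI rats. Groups were compared over all 22431 rows tested with edgeR's quasi-likelihood test, on counts scaled by trimmed mean (TMM) normalization. Changes are given as TBI over sham on the log2 scale.

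The first question was whether these genes still differ between injured and sham rats after 3 months. All 10 had a higher fitted level in TBI, with log2 changes from 0.08 for Egr3 to 0.49 for Nr4a1 and a median of 0.30, beside a median of -0.01 over all rows. After Benjamini-Hochberg adjustment over all rows in edgeR, 0 of the 10 passed 0.05, as did 0% of all rows. DESeq2 called 0 of the 10 and 3 of all rows. At an unadjusted p under 0.05, 1 of the 10 passed and was higher in TBI, where 4.89% of all rows were. For 0 of the 10 did the groups separate, while 0.499% of all rows were higher in each TBI rat than in each sham rat. The genes vary together across rats and are not 10 independent results. Without TBI rat 5 the median was 0.14 and 8 of the 10 changes were positive, and without sham rat 3 the median was 0.50.

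**Figure D1:**
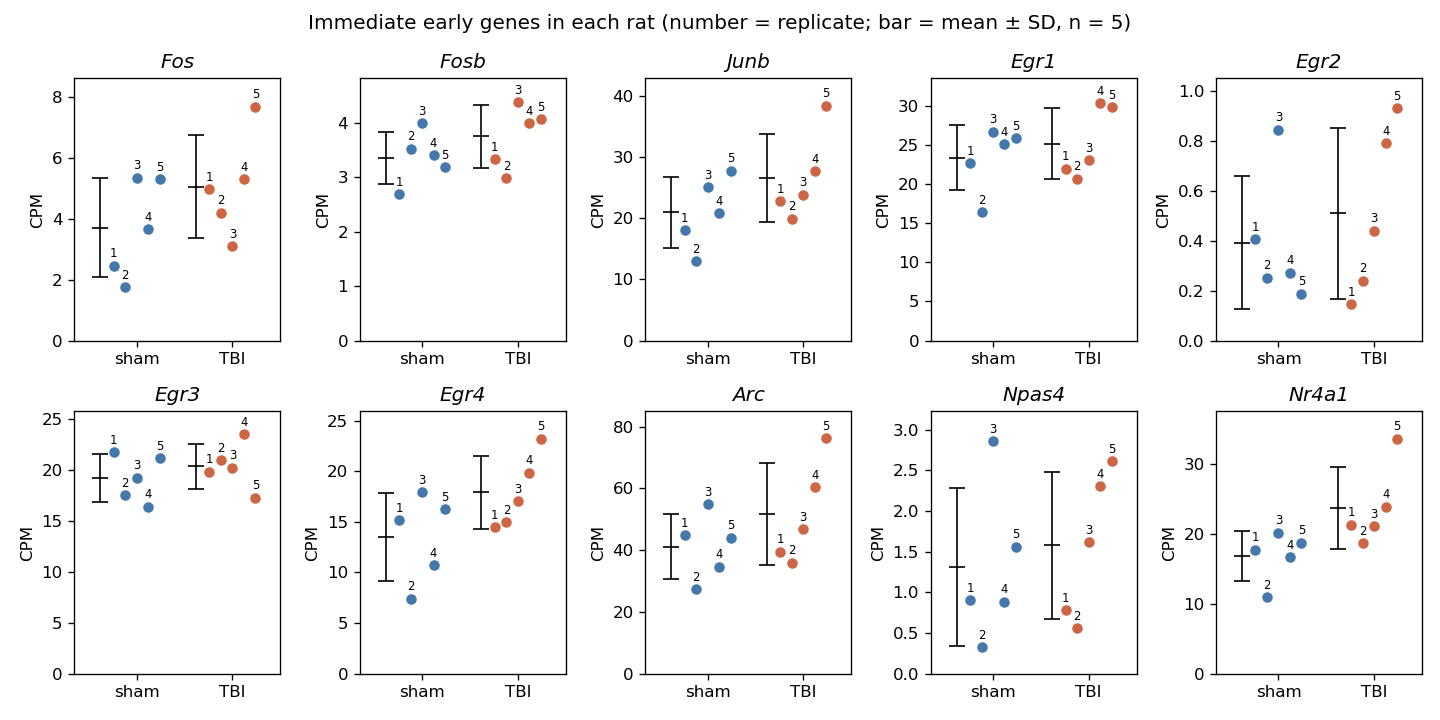
Level of each gene (CPM, vertical axis from 0) in the 5 sham and 5 TBI rats, numbered by replicate, with the group mean ± SD beside the points. The groups overlap in each panel, and Nr4a1 comes nearest to separation, with 4 TBI rats above the highest sham rat.

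Nr4a1, also called Nur77, was the gene that passed the unadjusted threshold. Its level in sham rats 1 to 5 was 17.7, 10.9, 20.1, 16.7 and 18.7 CPM, and in TBI rats 1 to 5 it was 21.3, 18.6, 21.1, 23.8 and 33.5 CPM. Of the 5 TBI rats, 4 lay above the highest sham rat, and TBI rat 2 lay within the sham range. The mean level was 16.8 CPM ± 3.53 (SD, n = 5) for sham and 23.7 CPM ± 5.82 (SD, n = 5) for TBI. Its log2 change was 0.49 (SE 0.179). The unadjusted p from edgeR was 0.0169, and after Benjamini-Hochberg adjustment edgeR gave 0.548 (adjusted p). A two-sided exact permutation test of log2 CPM gave p = 0.0238. Leaving out each rat in turn gave log2 changes from 0.33 to 0.57, the lowest without TBI rat 5, and p from 0.00759 to 0.0327. With the ribosomal RNA share as a covariate the log2 change was 0.51 and p was 0.0637. Nr4a1 is also on the study's list for this model, from the same cohort but with fewer sham rats by its methods than by the labels, so its p here is not independent evidence. The study's adjusted p for Nr4a1 was under 0.05, unlike the one here. Ier2, Mt2A and Mapk3, named below, are on that list too. So are Mt1a of the glucocorticoid list and the cell type markers Wfs1, Mpped1, Gad1, Gad2, Gfap and Aqp4. The same limit holds for these genes and for the counts that include them.

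Of the AP-1 genes, Fos was at 2.47, 1.76, 5.36, 3.67 and 5.31 CPM in sham rats 1 to 5, and at 4.99, 4.20, 3.11, 5.31 and 7.69 CPM in TBI rats 1 to 5. Only TBI rat 5 exceeded the sham range, and TBI rat 3 was below 3 of the sham rats. The sham and TBI means were 3.71 CPM ± 1.63 (SD, n = 5) and 5.06 CPM ± 1.70 (SD, n = 5). The log2 change of 0.47 had a 95% confidence interval from -0.27 to 1.22, so with 5 rats a group neither no change nor a doubling lay outside it. Without TBI rat 5 it was 0.27, without sham rat 2 it was 0.28 and without sham rat 3 it was 0.69, with unadjusted p of 0.407, 0.346 and 0.0712 in edgeR.

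Junb, whose protein pairs with Fos, was at 18.0, 13.0, 25.1, 20.9 and 27.7 CPM in sham rats 1 to 5. In TBI rats 1 to 5 it was at 22.8, 19.9, 23.9, 27.7 and 38.4 CPM. TBI rat 5 stood above the sham range, and the other TBI rats lay within it. Its log2 change was 0.35 with an interval from -0.16 to 0.86, and was 0.18 without TBI rat 5 and 0.21 without sham rat 2.

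Fosb was at 2.68, 3.52, 4.00, 3.40 and 3.19 CPM in sham rats 1 to 5 and at 3.33, 2.98, 4.37, 3.99 and 4.07 CPM in TBI rats 1 to 5. TBI rats 3 and 5 lay above the sham range, by less than the spread within either group. Its log2 change was 0.16 (interval -0.14 to 0.45), and fits leaving out each rat in turn gave 0.069 without sham rat 1 to 0.24 without sham rat 3. The table holds a single Fosb row, so the long-lived truncated form that arises by splicing and is known from chronic seizures cannot be told apart from the full form.

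Of the Egr genes, Egr4 had the largest log2 change. It was at 15.2, 7.40, 17.9, 10.7 and 16.2 CPM in sham rats 1 to 5, and at 14.5, 15.0, 17.0, 19.9 and 23.2 CPM in TBI rats 1 to 5. TBI rats 4 and 5 were above the sham range, and sham rats 2 and 4 were below each TBI rat. This change was 0.40 (SE 0.229) with an unadjusted p of 0.106 in edgeR. Without sham rat 3 it was 0.54, and edgeR gave an unadjusted p of 0.0385. Without sham rat 2 it was 0.24 and without TBI rat 5 it was 0.29, with p of 0.147 and 0.231 in edgeR.

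Egr1, a common mark of neuronal activity, was at 22.6, 16.4, 26.7, 25.1 and 25.9 CPM in sham rats 1 to 5. In TBI rats 1 to 5 it was at 22.0, 20.7, 23.0, 30.3 and 29.8 CPM. TBI rats 4 and 5 were above the sham range, and the other 3 were within it. Egr1 had a log2 change of 0.11 (interval -0.18 to 0.40), and of 0.0058 without sham rat 2.

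Egr3 was the steadiest of the 10 genes. It was at 21.8, 17.5, 19.2, 16.4 and 21.2 CPM in sham rats 1 to 5 and at 19.8, 20.9, 20.2, 23.5 and 17.3 CPM in TBI rats 1 to 5. TBI rat 4 was above the sham range. TBI rat 5, high for most of the other genes, had the lowest Egr3 of the TBI rats. Egr3 had a log2 change of 0.08 with an interval from -0.13 to 0.29, which leaves out a difference as large as the fitted one of Nr4a1.

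Egr2 had few reads, from 3 to 36 counts a rat, and its values carry the largest counting error of the group. It was at 0.406, 0.252, 0.845, 0.272 and 0.187 CPM in sham rats 1 to 5 and at 0.145, 0.239, 0.440, 0.791 and 0.932 CPM in TBI rats 1 to 5. Sham rat 3 lay between TBI rats 4 and 5, and TBI rat 1 was the lowest of all. Egr2 had a log2 change of 0.26 with an interval from -0.79 to 1.32, and of -0.093 without TBI rat 5.

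Arc was at 44.9, 27.2, 54.9, 34.6 and 44.0 CPM in sham rats 1 to 5, and at 39.4, 35.9, 46.8, 60.4 and 76.2 CPM in TBI rats 1 to 5. TBI rats 4 and 5 were above the sham range, and TBI rats 1 and 2 were below 3 of the sham rats. The sham and TBI means were 41.1 CPM ± 10.6 (SD, n = 5) and 51.7 CPM ± 16.6 (SD, n = 5). Arc had a log2 change of 0.33 with an interval from -0.23 to 0.89, and of 0.15 without TBI rat 5 and 0.21 without sham rat 2.

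Npas4, with 9 to 101 counts a rat, was at 0.905, 0.323, 2.86, 0.884 and 1.56 CPM in sham rats 1 to 5. In TBI rats 1 to 5 it was at 0.783, 0.559, 1.61, 2.31 and 2.62 CPM. The highest of all 10 rats was sham rat 3, and no TBI rat exceeded the sham range. Npas4 had a log2 change of 0.24 with an interval from -1.08 to 1.57, and of -0.030 without sham rat 2, and it was also below 0 without TBI rat 5.

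**Figure D2:**
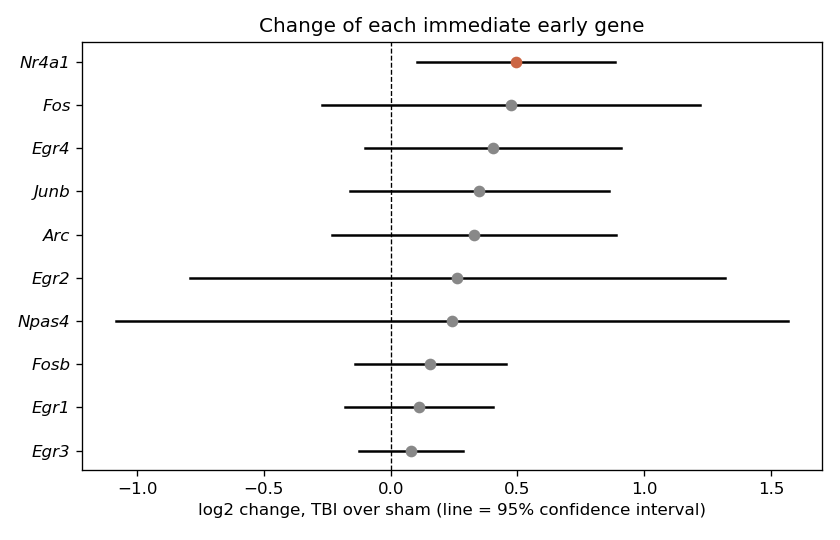
Log2 change of TBI over sham (horizontal axis) for each gene, with its 95% confidence interval from edgeR's quasi-likelihood fit. The interval of Nr4a1 (coloured) runs from 0.11 to 0.88, and the other 9 (grey) include 0.

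The second question was how the genes vary among rats of the same group. The same few rats were high or low for most genes. Within the sham group, sham rat 3 had the highest level of 8 of the 10 genes and sham rat 2 the lowest level of 7. Within the TBI group, TBI rat 5 had the highest level of 7 and TBI rat 2 the lowest of 6. Sham rat 2 had the lowest level of all 10 rats for 7 genes and TBI rat 5 the highest for 6. The spread was large beside the difference between groups: from the lowest to the highest sham rat Npas4 differed 8.84-fold, Fos 3.04-fold, Arc 2.02-fold and Egr3 1.33-fold.

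**Figure D3:**
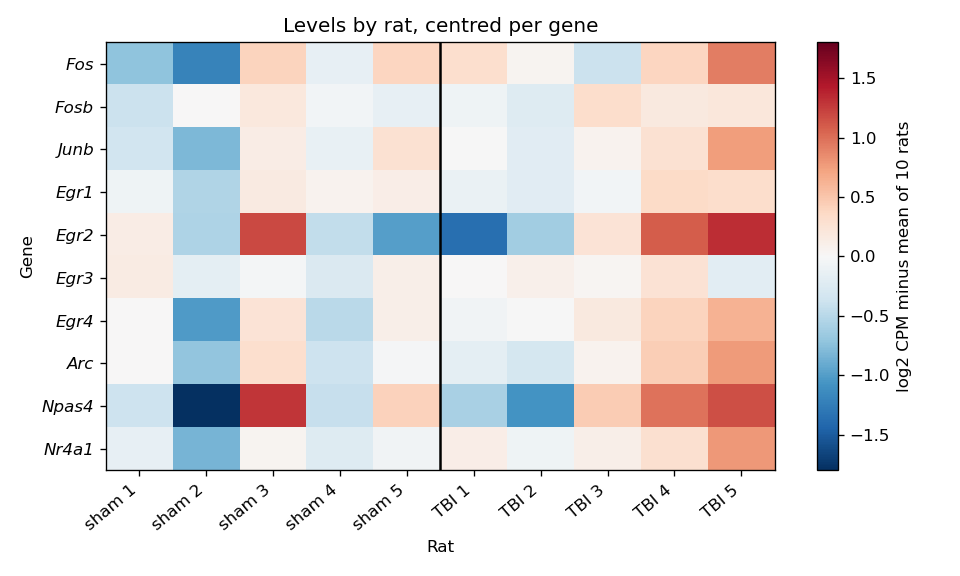
Log2 CPM of each gene (rows) in each rat (columns, sham left of the line and TBI right), minus the gene's mean over the 10 rats. Sham rat 2 is low and sham rat 3 high in most rows, TBI rats 4 and 5 are high, and Egr3 and Fosb show little contrast.

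The spread was expressed as edgeR's biological coefficient of variation, the variation between rats of a group beyond counting error. It was 62.1% for Npas4, 47.6% for Egr2, 35.3% for Fos, 26.9% for Arc, 24.8% for Egr4, 24.8% for Junb, 19.5% for Nr4a1, 15.2% for Egr1, 13.7% for Fosb and 11.2% for Egr3. The median over all rows was 12.8%. Each gene was then placed among the rows within 2-fold of its mean count. Npas4, Fos, Arc, Egr2, Junb, Egr4 and Nr4a1 lay between the 97.2 and 99.6 percentile of variation, Egr1 at 93.8, Egr3 at 61.0 and Fosb at 52.7. Most of these genes therefore varied more between rats than nearly all rows of like count, and Egr3 and Fosb did not.

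**Figure D4:**
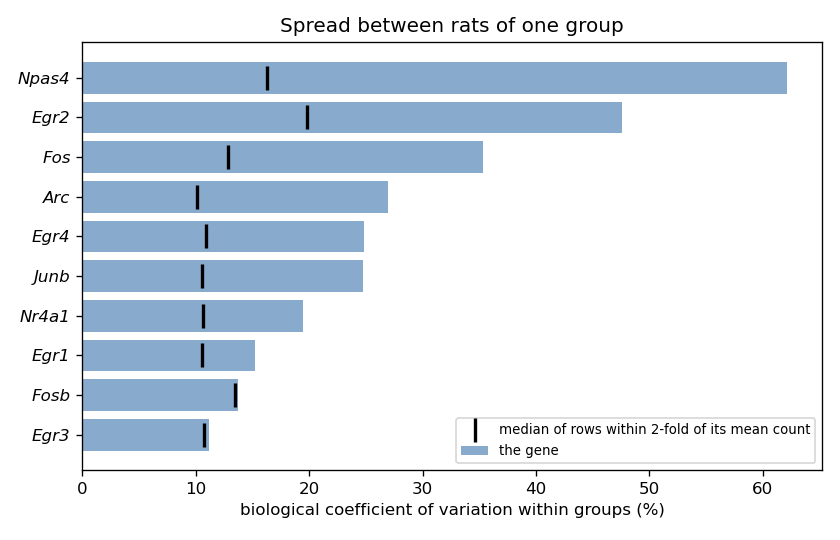
Biological coefficient of variation within groups (%, horizontal axis from 0) of each gene (bars), with the median of rows within 2-fold of its mean count (black marks). Npas4 has the longest bar at 62.1%, and the bars of Fosb and Egr3 end near their marks.

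To describe which genes vary together, each gene was compared with the mean of the other 9 over the 10 rats, after removal of the group means. Pearson r was 0.96 for Npas4 and Arc, 0.92 for Egr1, 0.91 for Nr4a1, 0.90 for Egr4, 0.89 for Junb, 0.72 for Fos and 0.68 for Egr2. It was 0.44 for Fosb and 0.08 for Egr3. Spearman's rho was 0.98 for Arc, 0.95 for Npas4, 0.58 for Fosb and 0.22 for Egr3. Without sham rat 2 and TBI rat 5, r was 0.96 for Npas4, 0.95 for Arc, 0.63 for Fosb, 0.49 for Fos and 0.27 for Egr3. These values describe 10 libraries that share their depth and scaling among all genes, and no p is given for them.

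The same measure was taken for 10710 other symbols with a mean of at least 1 CPM, each against the mean of the 10 genes. The 8 most alike were Aprt, Tmem151a, Cd99, Mal2, Adrm1, Acads, Snrpb and Fau, with r from 0.91 to 0.93 over 10 rats. They are not classical activity-regulated genes. Aprt salvages adenine, Snrpb is a splicing protein, Adrm1 a proteasome receptor for ubiquitin, and Fau yields a ribosomal protein. Their amplitude was small, from 75.4 to 87.6 CPM over the 10 rats for Mal2 and from 17.9 to 26.8 CPM for Aprt. They were picked as the highest of all symbols compared, whose median r was 0.0038, so their r is a description only. Of 40 other activity-regulated genes at this level, 18 (45.0%) had r over 0.5, beside 12.6% of all symbols compared. The highest of these were Trib1, a pseudokinase, with r of 0.86 and Ppp1r15a, a phosphatase subunit of the stress response, with 0.82. Of 30 genes of the pathway that induces immediate early genes, 4 (13.3%) had r over 0.5. The highest of them was Nab2, a repressor that binds Egr proteins, with 0.75.

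The third question was whether other activity-regulated genes differ between groups. A wider list held 46 symbols of immediate early genes outside the 10, of which 43 could be tested. Cyr61 and Ctgf, older names of Ccn1 and Ccn2, were among the 46, and these genes were tested under the newer names. Sgk1 and Per1 are also in the glucocorticoid list below, and Crem in the inducing pathway list, and each counts under both. Of the 43, 6 were higher and 1 lower in TBI at an unadjusted p under 0.05, where 4.89% of all rows were higher and 3.00% lower. None had an adjusted p under 0.05 in edgeR, the list's median log2 change was 0.12, and 32 of the 43 had a positive change. Klf2, a Krüppel-like factor, had a log2 change of 0.50 (SE 0.159), the growth response gene Ier2 of 0.54 (SE 0.186) and Dusp6, the phosphatase that switches off ERK, of 0.26 (SE 0.0964). Atf3, a stress-induced partner of AP-1, had a log2 change of 0.87 (SE 0.324) with means of 0.441 CPM ± 0.229 (SD, n = 5) for sham and 0.862 CPM ± 0.314 (SD, n = 5) for TBI. Zfp36, which destabilizes messengers, had a log2 change of 0.40 (SE 0.173). Rgs2, a regulator of G protein signalling, was the gene lower in TBI, with a log2 change of -0.33 (SE 0.148). Ier2 was at 4.34, 3.63, 6.95, 4.21 and 3.56 CPM in sham rats 1 to 5 and at 6.06, 6.04, 5.22, 6.99 and 9.09 CPM in TBI rats 1 to 5. For Ier2, sham rat 3 was the only sham rat in the TBI range. The count of 7 was 4 without TBI rat 1, 4 without TBI rat 5 and 3 with the ribosomal RNA covariate. Among close relatives of the 10 genes, Nr4a2 had a log2 change of 0.08 (SE 0.107) and Nr4a3 of 0.01 (SE 0.108). Jun had -0.11 (SE 0.0963), Jund 0.07 (SE 0.117), Fosl1 0.16 (SE 0.149) and Fosl2 -0.04 (SE 0.129). The change of Fosl1 was near that of Fosb and above those of Egr1 and Egr3.

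Late response genes, many of them induced by the factors above and encoding secreted or synaptic proteins, had 14 negative changes of 17 tested. Of the 17, 0 were higher and 2 lower at an unadjusted p under 0.05, beside 4.89% and 3.00% of all rows. The median log2 change was -0.11. Scg2, the precursor of secretoneurin, was at 104, 126, 104, 113 and 122 CPM in sham rats 1 to 5 and at 91.2, 87.3, 99.9, 96.6 and 92.0 CPM in TBI rats 1 to 5. Each TBI rat was below each sham rat, as in 0.424% of all rows. Its log2 change was -0.28 (SE 0.0780), and edgeR gave an adjusted p of 0.478. Penk, which encodes enkephalins, had a log2 change of -0.67 (SE 0.266). Nptx2, a synaptic pentraxin, had a log2 change of -0.10 (SE 0.0991). The count of 2 was 1 without sham rat 2, sham rat 4, TBI rat 1 or TBI rat 2.

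The kinases and factors that induce immediate early genes gave 0 higher and 1 lower of 30 tested at an unadjusted p under 0.05. Of all rows, 4.89% were higher and 3.00% lower. The median log2 change of the 30 was 0.00, with 15 positive changes. The count of 1 was 4 without sham rat 3, 3 without sham rat 1, 2 without sham rat 2, TBI rat 1 or TBI rat 3, and 0 without TBI rat 4. It was 1 higher and 0 lower without sham rat 5 and without TBI rat 5. The gene lower in TBI was Mapk3, the kinase ERK1, with a log2 change of -1.52 (SE 0.620). Its row had 3916 and 2350 CPM in sham rats 4 and 5, the rats richest in ribosomal RNA, and 372 to 820 CPM in the other 8. The part of ribosomal RNA in this row was not tested. Without Mapk3 the changes of this list ran from -0.21 for Crebbp, a coactivator of CREB, to 0.20 for Rps6ka1, a kinase downstream of ERK.

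Genes that respond to glucocorticoids were examined as a further list, and whether their levels record stress before death was not tested. At an unadjusted p under 0.05, 2 of 11 tested were higher and 0 lower, beside 4.89% and 3.00% of all rows. The 2 were Mt2A, a metallothionein, with a log2 change of 0.49 (SE 0.159) and Cdkn1a, an inhibitor of the cell cycle, of 0.48 (SE 0.189). The median log2 change of the 11 was 0.18, with 9 positive changes. The count of 2 was 1 without TBI rat 1 and 4 without TBI rat 4. Each list was given a score per rat, the average over its genes of log2 CPM minus the gene's own mean. TBI rat 1 had the highest score here, at 0.43, and sham rat 3 the lowest at -0.28, although sham rat 3 was high for the immediate early genes. Of the 11, 0 had r over 0.5 with the mean of the 10 genes, beside 12.6% of all symbols compared. The median r of the 11 was -0.47.

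**Figure D5:**
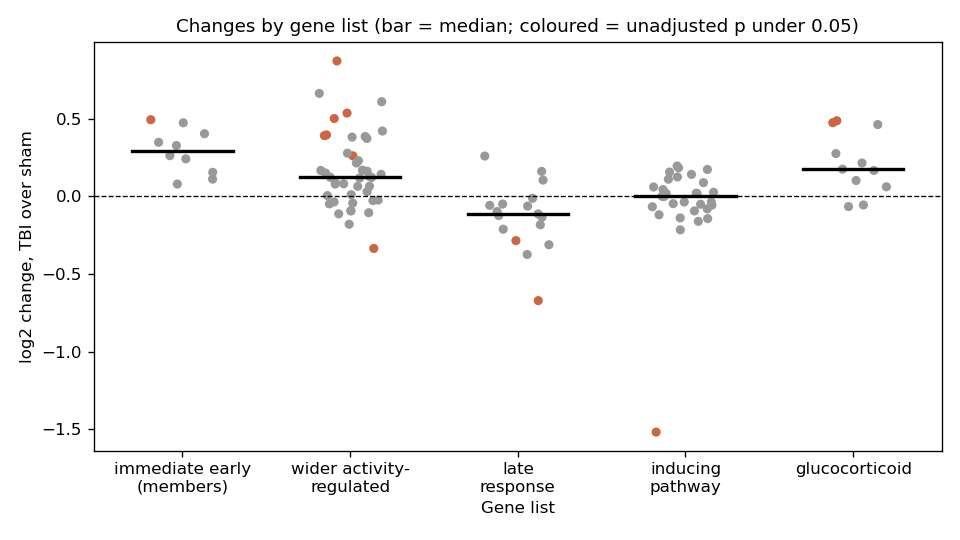
Log2 change of TBI over sham (vertical axis) of each gene in the 10 immediate early genes and the 4 other lists, with the median of each list as a bar and genes with an unadjusted p under 0.05 coloured. The medians are 0.30, 0.12, -0.11, 0.00 and 0.18 from left to right, and the lowest point is Mapk3.

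Marker genes of cell types also differed in level between the rats. Of 6 CA1 markers, 6 had a positive log2 change, with a median of 1.17. At an unadjusted p under 0.05, 2 of the 6 were higher, where 4.89% of all rows were. The CA1 list score in sham rats 1 to 5 was -0.32, -1.16, 0.21, -0.42 and -0.45, and in TBI rats 1 to 5 it was 1.30, 1.81, -0.15, -1.45 and 0.61. The score of the 10 immediate early genes, computed likewise, was -0.18, -0.74, 0.37, -0.24 and 0.03 in sham rats and -0.17, -0.25, 0.09, 0.44 and 0.64 in TBI rats. In the sham group both were lowest in sham rat 2 and highest in sham rat 3. In the TBI group CA1 markers were highest in TBI rat 2 and lowest in TBI rat 4, while the immediate early genes were lowest in TBI rat 2 and highest in TBI rat 5. The CA3 score was 0.54, -0.20, 0.03, 0.10 and -0.22 in sham rats and -0.44, -0.26, -0.18, 0.44 and 0.19 in TBI rats. The general neuron score was 0.19, -0.04, -0.04, 0.0004 and 0.02 in sham rats and -0.13, -0.16, -0.0013, 0.12 and 0.03 in TBI rats. The astrocyte score was -0.22, -0.13, 0.07, -0.12 and -0.22 in sham rats and 0.37, 0.32, -0.15, 0.02 and 0.05 in TBI rats. TBI rat 4 had the highest CA3 and general neuron scores of the TBI rats. The dentate granule cell score, over 4 of 7 listed genes that could be tested, ran from -0.76 to 0.47 in sham rats and from -0.55 to 0.32 in TBI rats. TBI rat 5, high for 7 of the 10 genes, had the lowest granule cell score of the TBI rats and sham rat 3 the highest of all. Of 6 GABAergic markers, 0 were higher and 4 lower in TBI at an unadjusted p under 0.05, beside 4.89% and 3.00% of all rows, and the score ran from -0.03 to 0.47 in sham rats and from -0.39 to 0.14 in TBI rats. By the same threshold, astrocyte and microglia lists gave 1 higher and 0 lower of 6 each. Of the markers with a row in the table, 0 were at 0 in all rats. The part of cell composition in the levels of the 10 genes was not tested.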

How the data were processed

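Single reads of 36 bases of poly-A RNA from 10 rats were aligned by the authors to the rat genome rn4 with BWA. The authors deposited raw read counts of each rat for each RefSeq RNA record, not normalized. Their methods name Ensembl transcripts, while the rows are RefSeq records, and counting by strand is not stated, so overlapping transcripts are uncertain. Unmapped reads, 12.8% to 26.1% of all reads, entered neither library sizes nor tests. The 1 entry that names no gene held 0 counts and was left out. Symbols came from RefSeq genes of another assembly (GRCr8), used for names, and matched 54.2% of RNA records.

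Groups were taken from the labels. Rows totalling 44 counts or more, the 30th percentile, were kept, as in the study's methods. The 5 TBI and 5 sham rats were compared with edgeR 4.0.16 in R 4.3.3 (quasi-likelihood F test, robust estimation, TMM) and Benjamini-Hochberg adjustment over 22431 rows. The fit was tested on simulated data. Intervals are 95% intervals of the log2 change. The genes, lists and tests were chosen with earlier results of these data known. Of each list, genes with an unadjusted p under 0.05 were named, up to 6 by smallest p, or else the 2 with the smallest p, and relatives of the 10 genes and Nptx2 were added after their values were seen. The list medians were set beside all rows and not tested. Rats were numbered within groups in sample order.

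Alternatives were DESeq2 1.42.0, limma 3.58.1 with voom, edgeR's exact and likelihood ratio tests, other size factors and filters, a ribosomal RNA covariate, rows summed per symbol, and leaving out rats. Total count scaling outside ribosomal RNA, the exact permutation test and the fit without sham rat 3 and TBI rat 3 were added after seeing the data. Levels were not compared between genes, since transcript lengths were not used here. Figures were drawn with matplotlib 3.10.9.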

Additional observations from a re-analysis of the deposited data

Results flagged for a closer look

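Rats far from the rest of their group were sought in 80 sets of 5 values, made up of library measures, list scores, the 10 genes and named list genes. In 4 sets the gap of 1 rat exceeded the 95% critical value of Dixon's test, and chance gives about 1 in 20, or 4. None of them was a level of the 10 immediate early genes. Ier2 in sham rat 3 was 6.95 CPM, and 3.56 to 4.34 CPM in the other sham rats. The inducing pathway score was -0.14 in TBI rat 5, the rat with the highest mean of the immediate early genes, and -0.0069 to 0.03 in the other TBI rats. In sham rat 1 the dentate granule cell score was -0.76 (others 0.20 to 0.47) and the general neuron score 0.19 (others -0.04 to 0.02). The causes were not tested.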

How the results depend on the processing

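The count of immediate early genes with an adjusted p under 0.05 was 0 under each alternative run. The count at an unadjusted p under 0.05 (1) was 7 after scaling to total counts, 4 after scaling to totals outside ribosomal RNA, 0 with the ribosomal RNA covariate, 2 without sham rat 3 and TBI rat 3, and 1 to 2 when single rats were left out (2 without sham rat 3). These 2 scalings moved the median of all rows to 0.50 and 0.14 on the log2 scale, and that of the 10 genes to 0.79 and 0.43. Of 250 log2 changes of the 10 genes under 25 alternatives each, 234 kept their direction and their side of 0.05, 11 gained a p under 0.05, 1 lost it and 4 turned negative: Egr2 with the ribosomal RNA covariate (-0.29), and Egr2 and Npas4 among fits leaving out a rat (-0.093 to 0.79 and -0.030 to 0.86). The wider list (7) gave 22 with total count scaling (22 higher, 0 lower, against 6 and 1), 12 outside ribosomal RNA, 3 with the covariate, 4 without sham rats 4 and 5 (high in ribosomal RNA), 11 without sham rat 3 and TBI rat 3, and 4 to 9 leaving out a rat. Late response genes (2) gave 1 (higher, against 0 higher and 2 lower), 0 and 1 under the first 3 of these, and 1 to 3 leaving out a rat. Inducing pathway genes (1) gave 5 and 7 under the scalings (all higher, against 0 higher and 1 lower), 2 and 2 under the next pair, 0 with voom, 2 without a filter, 3 without sham rat 3 and TBI rat 3, and 0 to 4 leaving out a rat. Glucocorticoid genes (2) gave 7 and 4 under total count scaling and the same outside ribosomal RNA, and 1 to 4 leaving out a rat. Sham rat 3 and TBI rat 3 had been set apart for lying nearer the other group, so their removal widens differences by construction (319 of all rows with an adjusted p under 0.05, against 0) and its counts support nothing. The causes of the other shifts were not tested. The order of the genes by level was not run, for lack of transcript lengths. No paired analysis was possible because the numbers of the rats differ between groups and pair no animals. The width of the 95% interval of the log2 change ran from 0.41 for Egr3 to 2.65 for Npas4, so precision differed between the genes.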
